A study of Mus musculus with 6 samples.

Results

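In thioglycollate-elicited mouse macrophages, 2273 autosomal PU.1 regions lay where a histone mark of active chromatin was called in 3T3-L1 adipocytes but not in the macrophages themselves. They were chosen by position: a PU.1 region had to overlap an acetylated region of the adipocytes by at least 1 bp, and no macrophage region of C/EBPβ or of acetylated histone H3 lysine 9 (H3K9Ace). PU.1 regions without C/EBPβ, called PU.1-alone below, numbered 32405, among 45485 autosomal PU.1 regions and 46356 in all. The 2273 regions are called adipocyte-only sites, which refers to acetylation at the site and not to PU.1, since PU.1 was mapped in macrophages alone.

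The macrophages came from the peritoneal cavity of male C57BL/6 mice, taken 3 days after 1 ml of sterile 3% thioglycollate and collected after 24 h of adherence, with at least 4 animals pooled for each sequencing run. 3T3-L1 is an established mouse preadipocyte line, here differentiated into adipocytes. The series has 6 ChIP-seq libraries, 1 for each combination of target and cell type (PPARγ, PU.1, C/EBPβ and H3K9Ace in macrophages, PPARγ and H3K9Ace in adipocytes). No comparison can therefore be tested over replicates. Shares and medians carry 95% intervals for counting error alone, which take regions as independent although sites in the same domain share their chromatin. The total number of reads is unknown.

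PU.1 is an ETS-family transcription factor that marks enhancers and promoters of myeloid and B cells, often together with C/EBPβ, a leucine-zipper factor of myeloid and fat cells. H3K9Ace is laid down at active promoters and enhancers, so a called acetylated region, here called a domain, is a stretch of active chromatin. PPARγ is a ligand-activated receptor needed to make fat cells, and macrophages express it too.

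Adipocyte-only sites were the smallest acetylation class of PU.1-alone regions, at 7.01% (95% Wilson interval 6.74 to 7.30). Another 6401 PU.1-alone regions (19.8%) were acetylated in both cell types, 4869 (15.0%) in macrophages only, and 18862 (58.2%) in neither. Over all autosomal PU.1 regions, with or without C/EBPβ, 6.55% were acetylated in adipocytes only. These overlaps define the sites and are a description. Among PU.1 regions with C/EBPβ the corresponding class held 705 of 13080 regions, 5.39% (5.02 to 5.79). Of the PU.1-alone regions acetylated in adipocytes, 26.2% (25.3 to 27.1) lacked acetylation in macrophages, against 17.1% (16.02 to 18.3) of those with C/EBPβ.

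To give the share a scale, all PU.1-alone regions were moved along their chromosomes by 20 fixed offsets of 1 to 20 Mb, with positions past the end carried to the start. After such a shift between 3.06% and 4.85% of them met adipocyte acetylation alone, with a median of 3.33%, so the observed share was 2.11 times the median. For sites acetylated in both cell types the observed share was 13.2 times the shifted median of 1.501%, and for those acetylated in macrophages only 12.5 times the median of 1.20%. The adipocyte-only class thus exceeded its shifted value far less than did either class with macrophage acetylation. The highest of these shares, 4.85%, came from the shortest offset, 1 Mb. This comparison carries no test.

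The density of PU.1-alone centres showed where the excess lay. Bases acetylated in adipocytes and outside macrophage domains held 2276 centres in 69.3 Mb, 32.8 per Mb (exact Poisson 95% interval 31.5 to 34.2). Bases acetylated in neither held 8.42 per Mb (8.30 to 8.53), a ratio of 3.902. Inside macrophage domains the density was far higher and nearly the same whether or not the adipocytes were acetylated, 202.0 per Mb with and 197.0 per Mb without adipocyte acetylation.

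Much of that ratio followed the distance from macrophage acetylation. Within 1 kb of a macrophage domain, adipocyte-acetylated bases held 54.0 PU.1-alone centres per Mb (50.5 to 57.6), fewer than the 61.1 (58.9 to 63.4) of bases acetylated in neither. At 1 to 5 kb the densities were 34.0 (31.5 to 36.7) and 30.2 (29.4 to 31.1). At 5 to 20 kb they were 27.6 (25.1 to 30.4) and 18.7 (18.3 to 19.2), a ratio of 1.47. At 20 to 100 kb they were 17.5 (15.2 to 20.04) and 8.08 (7.85 to 8.33), a ratio of 2.16. Beyond 100 kb only 38 centres lay in adipocyte-acetylated bases, 7.97 per Mb (5.64 to 10.9), against 1.03 (0.976 to 1.09) elsewhere, a ratio of 7.73. The density fell with distance in both kinds of base, but less in adipocyte-acetylated ones. Distances were not matched inside each range, and the last range has no upper end. Assembly gaps were not removed from the base counts. The part of either in the ratio was not tested.

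**Figure D1:**
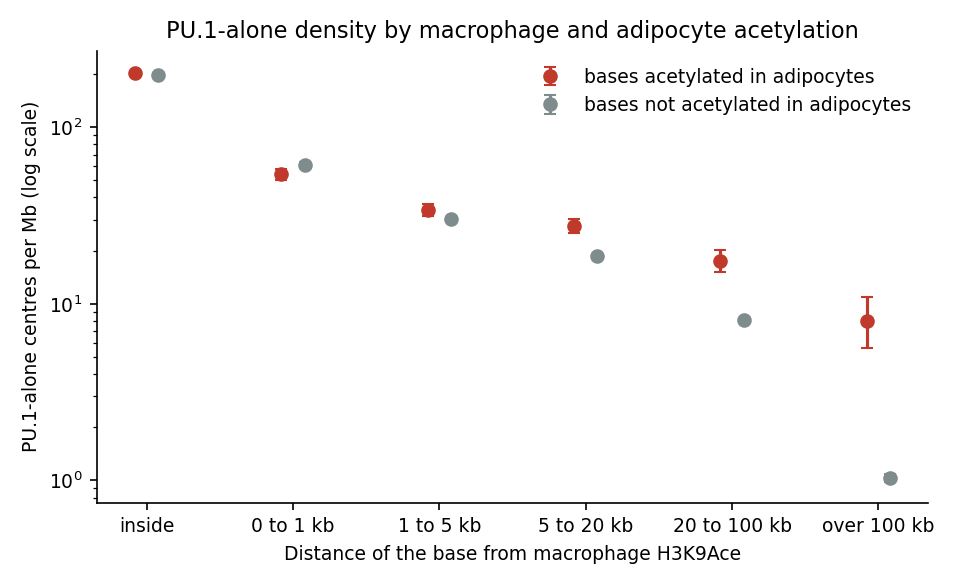
Density of PU.1-alone centres per Mb (log axis) by distance from the nearest macrophage H3K9Ace domain, for bases acetylated in adipocytes and bases not acetylated there. Points are counts divided by Mb, and bars are exact Poisson 95% intervals. The series lie close inside macrophage domains (202.0 and 197.0 per Mb), the adipocyte-acetylated bases are lower within 1 kb (54.0 against 61.1), and they are increasingly higher from 1 to 5 kb outward, reaching 7.97 against 1.03 per Mb beyond 100 kb.

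Acetylation confined to adipocytes at the site did not mean a domain confined to adipocytes. The sites lay in 2152 adipocyte domains, of which 2032 held a single site, 114 held 2, 5 held 3 and 1 held 4. Of these domains, 1306 overlapped no macrophage domain and 846 overlapped a macrophage domain elsewhere along their length. By sites, 1356 (59.7%, 57.6 to 61.7) lay in wholly adipocyte domains and 917 (40.3%, 38.3 to 42.4) in domains acetylated in part in macrophages. By domains, 846 of the 2152 hosting ones overlapped a macrophage domain, against 15983 of all 50496 autosomal adipocyte domains (31.7%). The hosting domains were wider, with a median of 2000 bp against 1000 bp, and the part of width was not tested.

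The hosting domains had a median width of 2000 bp (95% interval 1800 to 2150), against 1000 bp over all autosomal adipocyte domains and 3500 bp (3400 to 3550) at PU.1-alone regions acetylated in both cell types. That median joins unlike groups. Wholly adipocyte domains with a site had a median of 1100 bp (1000 to 1150), little above the 900 bp of such domains without PU.1. Domains with macrophage acetylation elsewhere were far wider, with a median of 4850 bp (4650 to 5200) and a maximum of 59050 bp. In these 846 domains macrophage acetylation covered a median of 43.1% of the bases (40.5 to 45.0), against 65.1% (64.5 to 65.8) in the 15137 domains that met macrophage acetylation but held no site. They were also more often in contact with several macrophage domains, 27.3% against 11.8%, beside median widths of 4850 and 2550 bp. The part of width in this difference was not tested. A less covered domain offers more bases where a site can meet the rule.

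The share of domains holding a site rose with their width. Among autosomal adipocyte domains, 2.61% of those up to 1 kb held an adipocyte-only site, 3.93% of those of 1 to 2 kb, 4.97% at 2 to 4 kb, 9.21% at 4 to 8 kb and 18.2% (16.1 to 20.4) above 8 kb.

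The domain with the most sites, 4, lay at chr15:85894151-85898900 (mm8). It was 4750 bp wide, with macrophage acetylation over 14.7% of its bases and no adipocyte PPARγ. The widest 4 of the 5 domains with 3 sites lay at chr6:83373401-83383050, at chr3:108410501-108419600 and chr3:88592901-88600750, and at chr5:145185151-145192100. The first of these overlapped a region of the final adipocyte PPARγ list. Of these 5 domains, that on chromosome 5 was the only one without macrophage acetylation, which covered between 6.74% and 52.2% of the bases of the others.

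Within their domains the sites kept different places. Position was measured as the distance of the PU.1 centre from the domain centre over the distance from centre to edge. Over all centres, also those outside the domain, the median was 0.52 (0.48 to 0.55) in wholly adipocyte domains. It was 0.68 (0.65 to 0.71) where macrophage acetylation lay elsewhere in the domain, and 0.42 (0.41 to 0.43) for PU.1-alone regions acetylated in both cell types. For centres inside the domain the medians were 0.45, 0.63 and 0.40. In domains up to 2 kb, over all centres, the median was 0.53 (0.49 to 0.57) for sites and 0.49 (0.46 to 0.52) for regions acetylated in both. Above 2 kb the medians were 0.52 in wholly adipocyte domains, 0.68 in partly shared ones and 0.40 for regions acetylated in both. Sites in partly shared domains thus lay toward the edges, as the rule favours by removing the stretch acetylated in macrophages. The 1-bp rule also admitted 255 sites (11.2%) whose centre was outside the domain, against 3.12% of regions acetylated in both cell types. Among sites centred inside, 44.4% (41.6 to 47.2) of those in wholly adipocyte domains lay in the outer 50% of the width, against 61.7% (58.3 to 64.9) in partly shared domains and 38.5% (37.3 to 39.7) of regions acetylated in both.

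**Figure D2:**
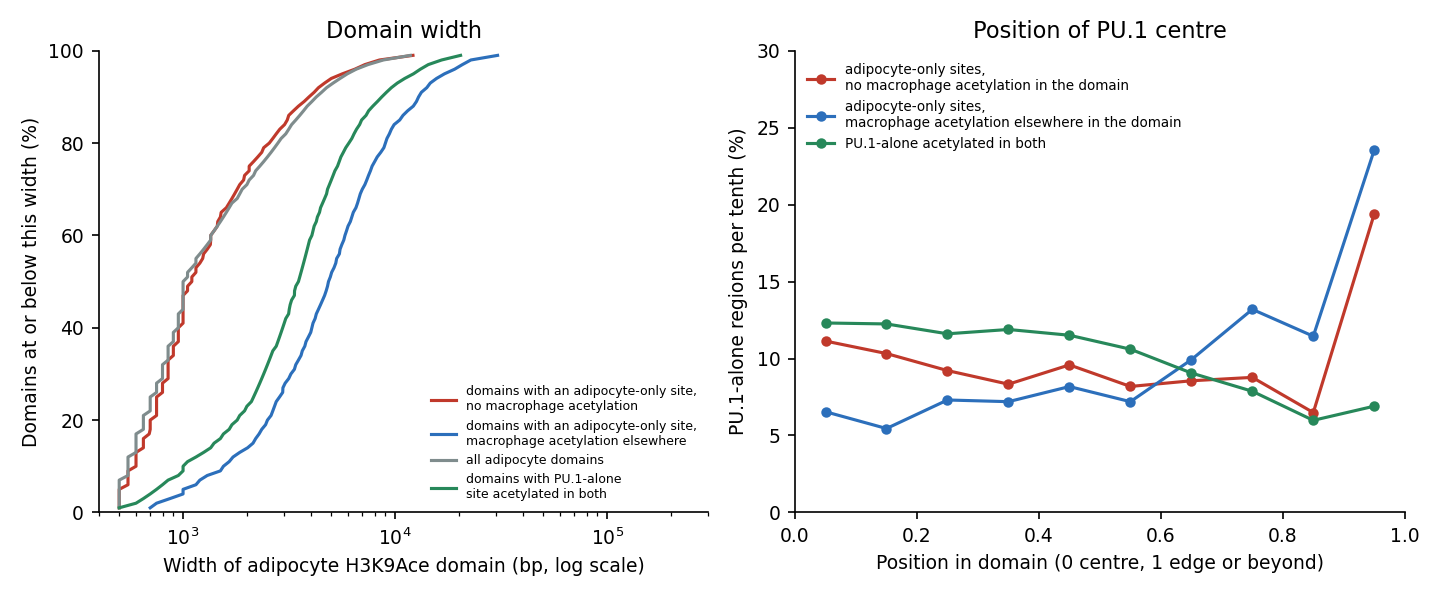
Left, cumulative share (%) of adipocyte H3K9Ace domains by width (bp, log axis) for domains with an adipocyte-only site, split by macrophage acetylation elsewhere in the domain, for domains with a PU.1-alone region acetylated in both cell types, and for all autosomal domains. Right, share (%) of PU.1 centres in steps of 0.1 from domain centre (0) to edge (1), with centres beyond the edge counted in the last step. Wholly adipocyte domains with a site follow all domains (medians 1100 and 1000 bp), and partly shared ones are wider (4850 bp) with their sites toward the edge.

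Macrophage acetylation was seldom far away. The median distance from an adipocyte-only site to the nearest macrophage domain, edge to edge, was 2039 bp (1852 to 2260), with a range from 0 bp (1 abutting site) to 1496802 bp. PU.1-alone regions acetylated in neither cell type, which the rule treats alike in macrophages, lay at a median of 8623 bp (8344 to 8891). Within 1 kb of macrophage acetylation were 35.8% of the sites (33.9 to 37.8) and 12.9% of regions acetylated in neither, and within 10 kb 79.1% and 53.6%. The bases themselves differed in this way. Outside macrophage domains, 16.9 of 69.3 Mb of adipocyte-acetylated bases lay within 1 kb of one. For bases acetylated in neither it was 47.3 of 2339 Mb. Per Mb of bases within 1 kb, PU.1-alone centres were fewer in the adipocyte-acetylated ones, 54.0 against 61.1.

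The kinds of domain separated here as well. Sites in partly shared domains lay at a median of 457 bp (418 to 512) from macrophage acetylation, and 72.7% of them within 1 kb. Sites in wholly adipocyte domains lay at 5820 bp (5272 to 6303), and 10.8% of them within 1 kb. A wholly adipocyte domain cannot reach a macrophage domain by its own bases, which by construction lengthens the shortest distances.

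**Figure D3:**
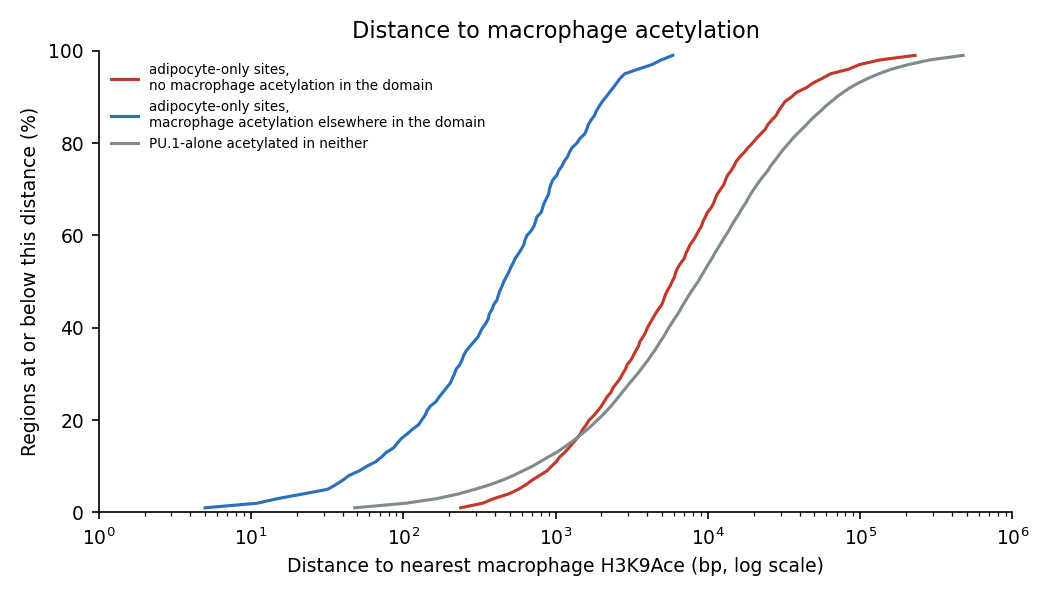
Cumulative share (%) of PU.1-alone regions by distance to the nearest macrophage H3K9Ace domain (bp, log axis), for adipocyte-only sites in wholly adipocyte domains, in partly shared domains, and for regions acetylated in neither cell type. The medians are 5820, 457 and 8623 bp.

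The most isolated site lay at chr5:82095502-82095696, 1496.8 kb from any macrophage domain, in a domain of 550 bp. The next 4, at chr3:30295989-30296134, chr5:92477912-92478130, chr1:120861506-120861691 and chr6:98490819-98491032, lay 447 to 489 kb away. Their domains were 500 to 1800 bp wide, and none of the 5 overlapped PPARγ in any list of either cell type. Over all sites the longer lists overlapped only 9.19% (adipocytes) and 5.72% (macrophages), so 5 sites are too few to set the isolated ones apart.

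The sites' own PU.1 regions were narrow. Their median width was 214 bp (211 to 216), close to the 210 bp (209 to 211) of PU.1-alone regions acetylated in neither and below the 242 bp (239 to 245) and 249 bp (246 to 252) of those acetylated in both cell types and in macrophages only. Sites in wholly adipocyte and in partly shared domains had medians of 214 and 213 bp. C/EBPβ, which the rule kept off the site itself, lay at a median of 9084 bp (8440 to 9941), between 5144 bp for regions acetylated in both and 13343 bp for those acetylated in neither. The nearest other PU.1 region lay at 4133 bp (3778 to 4574), against 1617 and 5950 bp. That neighbour was itself an adipocyte-only site in 475 cases (20.9%), a PU.1-alone region acetylated in both cell types in 580 (25.5%) and one acetylated in neither in 576 (25.3%). Of all 45485 autosomal PU.1 regions, 2273, 6401 and 18862 belonged to these classes. An adipocyte-only site was the nearest neighbour of 6.98% of PU.1-alone regions acetylated in both cell types and of 3.35% of those acetylated in neither. A neighbour of their own class was found for 43.0% of regions acetylated in both and 52.9% of those acetylated in neither. Those classes are larger, and the shares were not scaled to class size, so they do not rank the classes.

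Adipocyte PPARγ was not used to choose the sites. In the final adipocyte list it overlapped 26 of 2273 sites, 1.14% (0.782 to 1.67). Over all autosomal PU.1 regions the share was 0.556%, and over all PU.1-alone ones, which exclude regions with C/EBPβ, 0.250%. The share of sites was 0.646% with PU.1 centres required to lie inside the other region and 0.644% with 50% of the PU.1 region covered. Both stricter rules also held for the overlap with PPARγ. No share over all PU.1 regions was computed under them. At PU.1-alone regions acetylated in both cell types it overlapped 45 of 6401, 0.703% (0.526 to 0.939). The difference was 0.441 percentage points (95% Newcombe interval 0.00849 to 0.997). By the rule on centres it was 0.0888 points (-0.245 to 0.534), and with 50% of the PU.1 region covered 0.0762 (-0.258 to 0.521). With PPARγ regions of at least the median fold it was 0.259 (-0.0323 to 0.678), and with 1 count per domain 0.292 (-0.187 to 0.884). The interval stayed positive with C/EBPβ and macrophage acetylation at least 1000 bp away, 0.613 (0.0298 to 1.42). It did so too without chromosome 6, 0.512 (0.0661 to 1.10). Where adipocytes were not acetylated PPARγ was rarer, with 1 of 4869 regions acetylated in macrophages only and 9 of 18862 acetylated in neither.

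The longer adipocyte list, described as combining 3 datasets, has wider regions and overlapped 209 sites, 9.19% (8.07 to 10.5). It overlapped 3.93% of all autosomal PU.1 regions and 2.70% of all PU.1-alone ones. Regions acetylated in both cell types met it in 7.98% of cases (7.34 to 8.67) and those acetylated in neither in 0.647%. The difference from regions acetylated in both was 1.21 points (-0.103 to 2.62), an interval that includes 0.

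PU.1 regions that also carried C/EBPβ met PPARγ more often in the same kind of chromatin. Of the 705 PU.1 regions with C/EBPβ acetylated only in adipocytes, 50 overlapped the final adipocyte list, 7.09% (5.42 to 9.23), which was 5.95 points above the PU.1-alone sites (4.20 to 8.12). The combined list gave 23.4% against 9.19%, a difference of 14.2 points (10.98 to 17.7). The regions with C/EBPβ were wider, with a median of 275 bp against 214 bp. Among PU.1 regions up to 200 bp the combined list gave 21.9% (15.1 to 30.7) with C/EBPβ and 9.46% (7.70 to 11.6) without it, at 200 to 300 bp 23.8% and 8.26%, and above 300 bp 23.5% and 11.5%. The difference was thus present in every band of PU.1 width. The widths of the adipocyte domains hosting the regions with and without C/EBPβ were not compared.

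The final macrophage list overlapped 21 sites, 0.924% (0.605 to 1.41), against 2.83% of all autosomal PU.1 regions and 1.13% of all PU.1-alone ones. By class it overlapped 1.42% (1.16 to 1.74) of PU.1-alone regions acetylated in both cell types, 1.99% (1.64 to 2.42) of those acetylated in macrophages only and 0.827% (0.707 to 0.967) of those acetylated in neither. The longer macrophage list overlapped 130 sites, 5.72% (4.84 to 6.75), against 12.4% of all autosomal PU.1 regions, 6.58% of all PU.1-alone ones, which exclude regions with C/EBPβ, and 11.6% of those acetylated in macrophages only. In that list the difference of the sites minus regions acetylated in both was -3.70 points (-4.85 to -2.46), and that of the sites minus regions acetylated in neither 1.30 points (0.371 to 2.37).

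**Figure D4:**
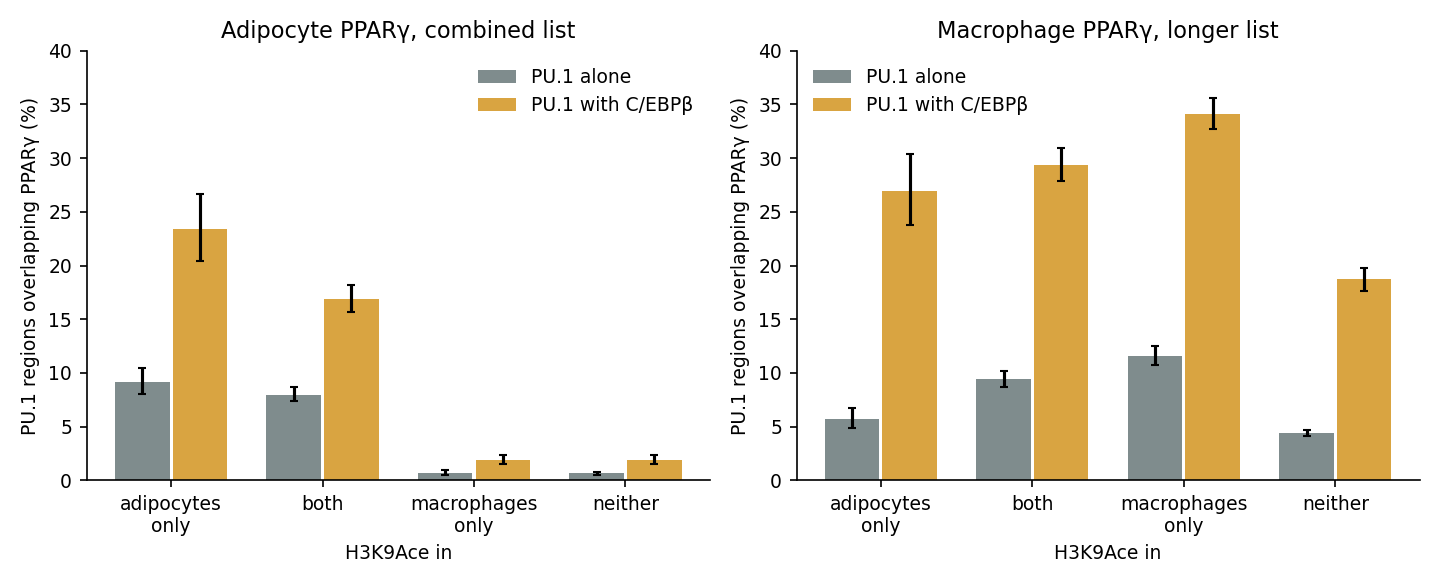
Share (%) of autosomal PU.1 regions that overlap PPARγ, by the cell type in which the PU.1 region is acetylated, for PU.1 alone and PU.1 with C/EBPβ. Left, the combined adipocyte list. Right, the longer macrophage list. Bars start at 0 and carry 95% Wilson intervals. At PU.1-alone regions acetylated only in adipocytes the shares are 9.19% and 5.72%, with C/EBPβ 23.4% and 26.95%.

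The 26 sites with adipocyte PPARγ met regions of middling strength. The fold that the authors' deposited table gives their PPARγ regions had a median of 6.47, against 6.39 in the whole list, and 13 of the 26 regions reached the list's median. Centres of PU.1 and PPARγ lay a median of 140 bp apart (6 to 333 bp). Of these 26 sites, 22 lay in wholly adipocyte domains (1.62%, 1.07 to 2.44) and 4 in partly shared ones (0.436%, 0.170 to 1.12), a difference of 1.19 points (0.313 to 2.05). With the combined list the shares were 10.4% and 7.42%, a difference of 2.98 points (0.569 to 5.29). Counted by whole domains the order was the other way: the final list overlapped 78 of 1306 wholly adipocyte domains with a site, 5.97% (4.81 to 7.39), and 102 of 846 partly shared ones, 12.1% (10.03 to 14.4), beside median widths of 1100 and 4850 bp. The combined list gave 18.99% and 35.8%.

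Among these 26, the PPARγ region with the highest fold in the authors' deposited table, 13.98, lay at the site at chr9:31011773-31012126, 14.4 kb from macrophage acetylation. Next came chr6:83378676-83378848 (fold 10.5), which is the only one of the 8 in a partly shared domain and lies in the 9650-bp domain named above. Chromosome 5 held sites at chr5:5420860-5421142 (fold 10.3) and chr5:5280613-5280805 (9.95). Chromosome 8 held neighbouring sites at chr8:10911058-10911300 (7.58) and chr8:10910660-10910865 (7.44), in a single domain of 3750 bp. The remaining sites of the 8 lay at chr4:53299388-53299648 (7.50) and chr14:75416220-75416405 (7.49).

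For the 21 macrophage PPARγ regions at sites, the median fold in the authors' deposited table was 6.83, against 6.19 in their whole list, and 15 of them reached that list's median. The strongest lay at chr8:74497229-74497618 (fold 16.9), only 182 bp from macrophage acetylation in a domain of 8900 bp. The site at chr12:3781446-3781811 (fold 11.2) was 246 bp from it. Chromosome 15 held the next 3, chr15:76140544-76140834 (10.8), chr15:95625276-95625534 (10.3) and chr15:61884684-61884998 (9.88), at 12716, 866 and 802 bp.

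Where a hosting domain held adipocyte PPARγ, most of its PU.1 sites did not overlap it. The final list overlapped 180 of the 2152 domains, 8.36% (7.27 to 9.61), against 3.85% of all autosomal adipocyte domains, beside median widths of 2000 and 1000 bp. Among domains that met macrophage acetylation it overlapped 12.1% of those with a site and 4.13% of those without, with median widths of 4850 and 2550 bp. These were not compared within bands of width. The 180 hosting domains with PPARγ held 204 sites, of which 26 overlapped PPARγ themselves, 12.7% (8.85 to 18.0). The other 178 lay at a median of 1338 bp (1138 to 1756) from the nearest PPARγ region. The combined list, with its wider regions, overlapped 25.6% of the hosting domains, against 14.4% of all, and 206 of the 606 sites in the domains it met, 34.0% (30.3 to 37.9). The other 400 lay at a median of 1167 bp (1031 to 1547) from the nearest region of that list.

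PPARγ in wholly adipocyte domains rose with their width, with or without PU.1. Pooled over widths, 78 of 1306 domains with a site overlapped the final list, 5.97% (4.81 to 7.39), against 3.37% (3.18 to 3.57) of 32815 domains without PU.1, a difference of 2.61 points (1.43 to 4.04). Compared within 5 bands of width and weighted to the widths of the domains with a site, the difference was 0.0253 points, and 0.427 with the combined list, where the pooled value was 6.33. In domains up to 1 kb the final list gave 1.29% with a site and 0.756% without PU.1. In those of 1 to 2 kb it gave 3.75% and 4.06%, at 2 to 4 kb 13.8% and 11.05%, at 4 to 8 kb 17.0% and 22.0%, and above 8 kb 37.9% and 48.6%. The intervals overlapped in every band.

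**Figure D5:**
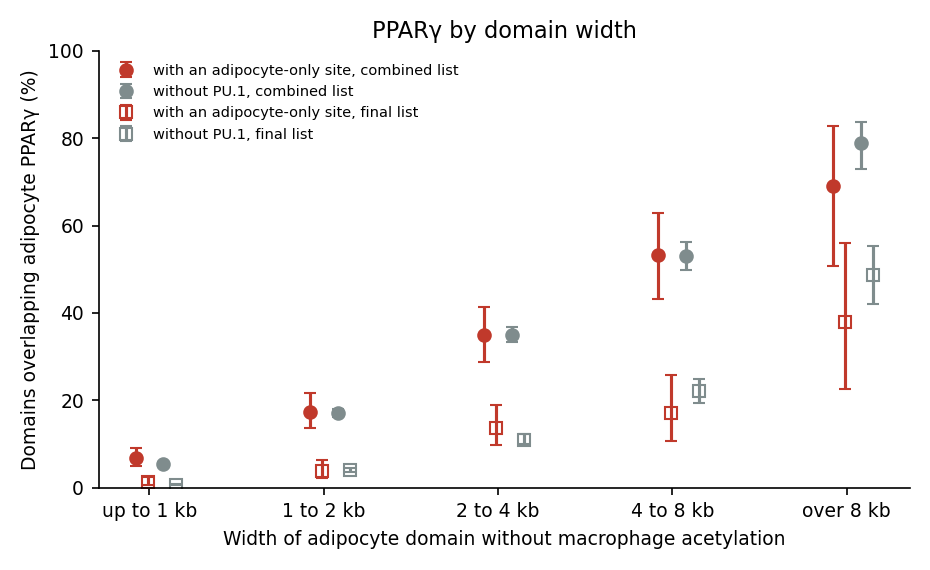
Share (%) of adipocyte domains without macrophage acetylation that overlap adipocyte PPARγ, by domain width, for domains with an adipocyte-only site and domains without PU.1. Filled circles are the combined list, open squares the final list, and bars 95% Wilson intervals. Shares climb with width in both kinds of domain, from 1.29% to 37.9% with a site and from 0.756% to 48.6% without PU.1 in the final list.

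The sites were spread over all 19 autosomes in step with adipocyte acetylation. As a share of PU.1-alone regions they ranged from 3.896% on chromosome 10 (3.12 to 4.86) to 12.6% on chromosome 19 (10.7 to 14.7), followed by 10.7% on chromosome 6 and 10.3% on chromosome 15. Adipocyte-only acetylated bases made up 5.97% of the span of chromosome 19, 4.64% of chromosome 6 and 1.96% of chromosome 10. Across the 19 chromosomes the shares had a Pearson r of 0.92 and a Spearman rho of 0.86, given as a description because both rest on the same adipocyte library. Per Mb of adipocyte-only acetylated bases the sites varied less, from 28.2 on chromosome 18 to 43.4 on chromosome 3.

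At the edges of the rule, 1763 sites (77.6%) lay wholly inside an adipocyte domain, 251 (11.04%) were less than 50% covered, and the smallest overlap was 1 bp. Macrophage acetylation began within 100 bp of 151 sites (6.64%), and C/EBPβ within 100 bp of 39. Just outside, 203 PU.1-alone regions acetylated in neither cell type lay within 100 bp of an adipocyte domain.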

How the data were processed

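The authors aligned 36-bp reads to mm8 with ELAND, with up to 2 mismatches and unique best matches only, per the labels' protocols. Neither peak caller settings nor the control is stated in the sources used here. The deposited lists for PU.1, C/EBPβ, H3K9Ace and combined adipocyte PPARγ give positions alone. Both final PPARγ lists, and the longer one for macrophages, also hold a fold (a ratio), a whole-number peak height (a signal) and a false discovery rate read as a percent, per the file headers. Only the fold was used, and within its list.

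The 20 repeated rows of the adipocyte H3K9Ace list were counted once. Overlap meant at least 1 bp, and distances run from edge to edge. Chromosomes end at the furthest region of any list. Shares carry Wilson, differences Newcombe, densities exact Poisson and medians order-statistic intervals at 95% (Python 3.11.15, scipy 1.17.1, statsmodels 0.14.6), with no test because each group has 1 library. The interval code was tested on simulated data. The sites, comparisons and lists were chosen with earlier results of these data known. Regions named are the 8 with the highest adipocyte and 5 with the highest macrophage PPARγ fold, the 5 domains with most sites and the 5 sites farthest from macrophage acetylation. Starts are printed as deposited for factors and counted from 1 for domains. No mm8 genome or annotation was used here, so regions carry no gene names or sequences.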

Additional observations from a re-analysis of the deposited data

How the results depend on the processing

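Of 45 alternative values, 26 stayed within the interval of the value reported (counts within 1.5 times) and 19 moved outside it. Only differences between shares could change direction, and none of them did. A value that stayed can still have an interval of its own that takes in both signs. With 50% of the PU.1 region covered, the adipocyte PPARγ difference from regions acetylated in both stayed, at 0.0762 points (-0.258 to 0.521). With C/EBPβ and macrophage acetylation at least 1000 bp away, 1352 sites remained, 4.87% of PU.1-alone regions, with a median domain width of 1500 bp and a median distance to macrophage acetylation of 5361 bp. With PU.1 centres inside the other region, the domain width was 2350 bp, the distance 1476.5 bp and the adipocyte PPARγ share 0.646%. With 50% of the PU.1 region covered these were 2350 bp, 1477 bp and 0.644%. Joining domains across gaps of up to 1000 bp gave a width of 4650 bp. The combined adipocyte list gave a PPARγ share of 9.19%, a difference from regions acetylated in both of 1.21 points and, for domains with a site against domains without PU.1, 6.33 points. PPARγ regions with at least the median fold gave 0.572% of sites and 1.40 points between domains. The longer macrophage list gave 5.72%. Within bands of width, added after seeing the data, the difference between domains was 0.0253 points, and 0.427 with the combined list. Leaving out chromosome 6 moved no value outside its interval. No paired analysis was possible because each group has 1 library. Depth is unknown, so a region missing from a list cannot be told from a weak one.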

Other observations

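Off the autosomes, 27 of 727 PU.1-alone regions on chromosomes X and Y met the same rule, 3.71% (95% Wilson interval 2.56 to 5.35), all 27 on X, and 3 of them overlapped the combined adipocyte PPARγ list. Of the 846 partly shared domains, 320 (37.8%) also held a PU.1-alone region acetylated in both cell types, and 416 (49.2%) held some PU.1 region besides their adipocyte-only sites. PU.1 centres with C/EBPβ were also denser in adipocyte-acetylated bases outside macrophage domains, at 10.6 per Mb (9.88 to 11.4), than in bases acetylated in neither, at 2.33 (2.27 to 2.39). Within 1 kb of a macrophage domain their densities were 19.4 (17.3 to 21.6) and 27.5 (26.0 to 29.0).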
